A study of Mus musculus with 2 samples.

Results

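The genes of hepatic steroid hormone metabolism were examined after partial hepatectomy in livers of male mice, miR-182-5p KO or WT. The genes are *Hsd3b2*, *Hsd3b3*, *Hsd3b5*, *Hsd3b7*, *Hsd11b1*, *Hsd17b2*, *Hsd17b6*, *Srd5a1*, *Akr1c6* and *Akr1d1*, chosen by name for what their enzymes do. All 10 are among the 34745 genes of the count table, and all 10 are among the 13561 genes that reached 10 counts in the KO and WT libraries combined, which were compared. RNA-seq was done on 1 KO library and 1 WT library. Both genotypes had the same operation, 2/3 PH, in which 70% of the liver is removed, and the livers were taken at day 3 in mice of 8 to 10 weeks. KO mice came from a line that the study's methods give as heterozygous, miR-182-5p+/-. The strain of the sequenced mice and the number of mice behind each library are not given in the sources used here. With 1 library per genotype the differences below have no replicate check, and no p-value is given. Intervals are exact 95% binomial intervals, which cover counting error only.

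Steroid hormones made in the adrenal and the gonads pass through the liver, where hepatocytes change them step by step before they are excreted. Hydroxysteroid dehydrogenases turn an alcohol group on the steroid into a ketone or the reverse, and so switch a hormone between a more and a less active form. Reductases of the SRD5A and AKR families remove the double bond of the steroid's first ring or reduce its ketones, and P450 enzymes, sulfotransferases and glucuronosyltransferases add the groups that make the product soluble. Several of these genes differ in level between male and female mouse liver, and *Hsd3b5* is a textbook male-biased gene.

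The genotype targets a miRNA, whose sequence is shown because its direct targets usually carry the complement of its seed. The mature mmu-miR-182-5p of RefSeq (GRCm38.p6, chr6:30165962-30165986, minus strand) is printed with the seed, bases 2 to 8, in capitals.
mmu-miR-182-5p: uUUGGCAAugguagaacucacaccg
The words that pair with this seed are TTGCCAA and, with one further base, TTGCCAAA. Among the longest annotated 3′ UTRs of 12501 genes, 11.96% hold the first word and 4.98% the second. Of the 10 steroid genes, 0 held either word, over UTRs from 82 bases in *Hsd17b2* to 2251 bases in *Hsd3b2*. No match says only that these letters are not in these windows.

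*Hsd3b5* and *Srd5a1* had the largest differences in each direction between the libraries, and *Hsd3b3* is a close relative of *Hsd3b5* that differed little, so the promoters of these 3 genes are shown. *Hsd3b2*, which also differed little and is about as close to *Hsd3b5* in coding sequence, is not shown. Each window runs from 250 bases before to 50 bases after the start of transcription in RefSeq (GRCm38.p6), 5′ to 3′ on the gene's own minus strand. The windows are chr3:98645485-98645784 for *Hsd3b5*, chr3:98763079-98763378 for *Hsd3b3* and chr13:69611414-69611713 for *Srd5a1*. Capitals mark a match to the HNF4 word CAAAGTCCA on either strand, HNF4 being a factor that drives many hepatocyte genes.
Hsd3b5: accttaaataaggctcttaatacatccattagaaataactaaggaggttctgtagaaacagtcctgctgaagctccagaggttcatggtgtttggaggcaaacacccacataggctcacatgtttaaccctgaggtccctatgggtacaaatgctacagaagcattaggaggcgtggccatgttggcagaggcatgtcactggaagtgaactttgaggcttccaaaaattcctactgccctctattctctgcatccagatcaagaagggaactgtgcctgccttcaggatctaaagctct
Hsd3b3: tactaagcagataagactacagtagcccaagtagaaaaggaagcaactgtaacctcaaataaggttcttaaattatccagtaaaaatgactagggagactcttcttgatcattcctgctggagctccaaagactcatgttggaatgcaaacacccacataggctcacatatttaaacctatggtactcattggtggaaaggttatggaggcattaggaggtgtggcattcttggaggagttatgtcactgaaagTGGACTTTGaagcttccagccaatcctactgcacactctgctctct
Srd5a1: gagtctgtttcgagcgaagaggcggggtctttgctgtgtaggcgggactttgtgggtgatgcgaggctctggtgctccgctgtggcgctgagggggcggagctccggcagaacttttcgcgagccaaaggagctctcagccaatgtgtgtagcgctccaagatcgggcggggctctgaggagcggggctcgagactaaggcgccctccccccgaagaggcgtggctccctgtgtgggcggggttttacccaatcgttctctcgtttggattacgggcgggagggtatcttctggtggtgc
The *Hsd3b5* and *Hsd3b3* windows could be aligned over 250 positions, of which 188 were identical (75.2%). The window of *Hsd3b2* aligned with that of *Hsd3b5* over 81 positions, of which 60 were identical (74.1%), and held no HNF4 word. The HNF4 word began at base 5 after the *Hsd3b3* start, on the opposite strand (TGGACTTTG). The closest word in the *Hsd3b5* window, TGAACTTTG at -44, carried G3A, counted from 1 at the 5′ end of the word with the *Hsd3b3* base first. The *Srd5a1* window had a GC content of 63.0%, against 46.0% for *Hsd3b5* and 42.3% for *Hsd3b3*. The annotation behind the counts begins *Hsd3b5* 15.3 kb downstream of the RefSeq start, so the 2 annotations do not share a promoter for this gene.

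Of the 10 genes, 9 had a window in the RefSeq promoter table, all but *Hsd17b2*, and 5 further words were searched on both strands in each. The STAT5 word TTCNNNGAA was in *Hsd3b7* (TTCCTGGAA at -21), and 8.30% of 32851 promoters of the same length hold it. The glucocorticoid half-site AGAACA was in *Hsd3b2* at -246 and is in 18.97% of promoters. The D-box words TTATGTAA and TTACGTAA, of which 0.938% and 0.119% of promoters hold one, were in 0 of the 9, as was TTGCCAA, which 3.80% hold. The HNF4 word, which is in 0.475% of promoters, was in *Hsd3b3* only among the 9. These matches are a description of the sequence and not of binding.

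Most of the 10 genes differed by less than 2-fold between the livers, with *Hsd3b5* far higher and *Srd5a1* lower in KO. Fold changes are given as log2 of KO over WT counts after TMM scaling, which sets the typical gene to no difference and is used because mitochondrial transcripts made up 51.7% of all 13247497 counts in KO and 31.0% of 13163348 in WT. Past a 2-fold difference, 1 of the 10 genes was higher in KO (*Hsd3b5*) and 1 was lower (*Srd5a1*), where 9.46% of all tested genes were higher and 9.94% lower. Of the 10 genes, 7 were above 0 and 3 below it, with a median of 0.20 on the log2 scale, against 0.00 for all tested genes. Under scaling by total counts the median of all tested genes was -0.60, that of the 10 genes was -0.40, 1 was higher and 3 were lower past 2-fold (*Srd5a1*, *Akr1c6* and *Akr1d1*), beside 4.6% higher and 26.6% lower among all tested genes. Read against these shares, neither count of members stands out.

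Summed over the 10 genes, the TMM-scaled level was nearly the same in both livers, with 1036 CPM in KO and 1018 CPM in WT. The unscaled sums were 11138 counts in KO, 0.0841% of the library (0.0825 to 0.0857), and 16508 counts in WT, 0.125% (0.124 to 0.127). Without the mitochondrial genes these shares were 0.174% and 0.182%. The share of mitochondrial counts thus moved with the unscaled difference, and its part in the result was not tested.

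**Figure D1:**
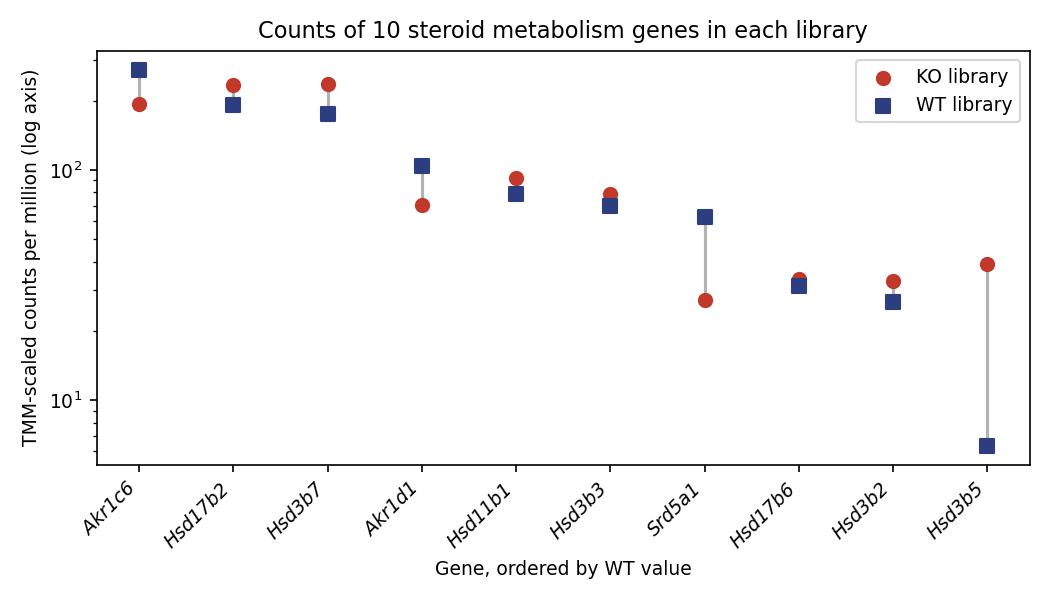
Level of each of the 10 genes in the KO and the WT library, 1 library each, as TMM-scaled CPM on a log axis. The points of a gene lie close together except for *Hsd3b5*, at 39.1 in KO and 6.35 in WT, and *Srd5a1*, at 27.3 and 62.2.

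The 3β-hydroxysteroid dehydrogenases of chromosome 3 differed among themselves. *Hsd3b2*, *Hsd3b3* and *Hsd3b5* lie in one cluster on the minus strand and have coding sequences of equal length, 1119 bases. The coding sequences of *Hsd3b2* and *Hsd3b3* were 95.1% identical, and those of *Hsd3b5* were 80.3% and 79.7% identical to them. The first pair are of the kind that oxidises and isomerises hormone precursors to the ketone form, whereas the mouse *Hsd3b5* product works in the other direction, as a reductase that inactivates steroids.

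*Hsd3b5* (ENSMUSG00000038092, chr3:98618634-98630252) had 420 counts in KO and 103 counts in WT. It was the only one of the 10 genes with the larger unscaled count in KO. Scaled by TMM its levels were 39.1 and 6.35 CPM, a log2 fold change of 2.61 (2.31 to 2.95) or 6.12-fold, and 1.60% of all tested genes had a higher fold change. Over the scalings, filters, prior counts and units tried the log2 fold change stayed between 2.00 and 2.63.

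*Hsd3b3* (ENSMUSG00000062410, chr3:98741523-98763127) had 843 counts in KO and 1136 in WT. Its TMM-scaled levels of 78.4 and 70.1 CPM gave a log2 fold change of 0.16 (0.03 to 0.29). *Hsd3b2* (ENSMUSG00000063730, chr3:98709255-98724543) had 354 counts in KO and 434 in WT, and its log2 fold change was 0.30 (0.09 to 0.50). Both were a little higher in KO with TMM and lower with total counts, at -0.44 and -0.30, so neither has a direction that holds under both scalings.

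The make-up of this gene cluster does not depend on how the libraries were scaled. *Hsd3b5* took 25.97% (23.9 to 28.2) of the 1617 counts of the 3 genes in KO and 6.16% (5.05 to 7.42) of 1673 counts in WT. *Hsd3b3* took 52.1% (49.7 to 54.6) and 67.9% (65.6 to 70.1), and *Hsd3b2* took 21.9% (19.9 to 24.0) and 25.9% (23.9 to 28.1). The intervals of *Hsd3b5* and of *Hsd3b3* did not overlap between the livers, whereas those of *Hsd3b2* met at their ends. Without *Hsd3b5* the *Hsd3b2* share of the other pair was 29.6% (27.0 to 32.2) in KO and 27.6% (25.4 to 29.9) in WT, intervals that overlap. The TMM-scaled sum of the 3 genes was 150 CPM in KO and 103 CPM in WT, although the unscaled sums were close.

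**Figure D2:**
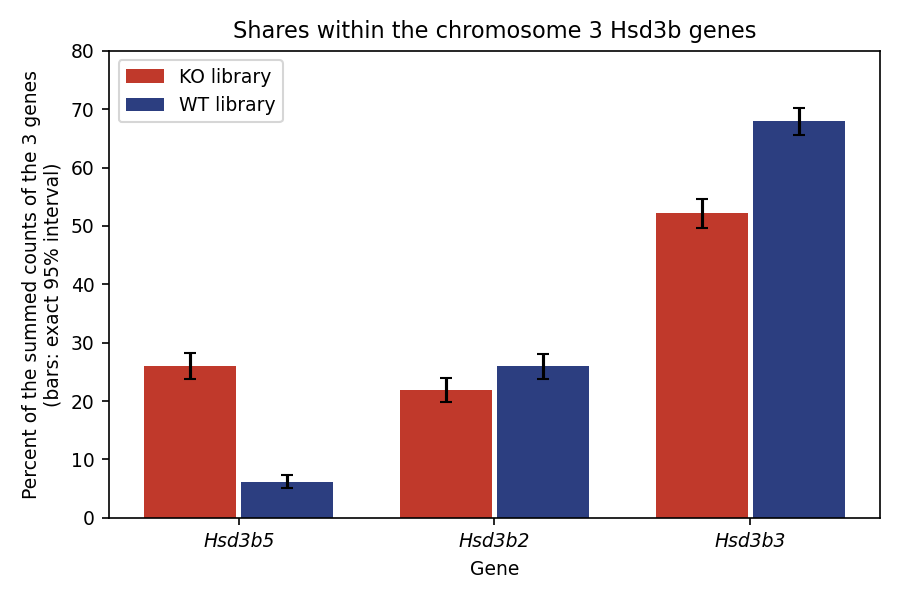
Percent of the summed counts of *Hsd3b2*, *Hsd3b3* and *Hsd3b5* taken by each gene in the KO and the WT library, with exact 95% binomial intervals. *Hsd3b5* is at 25.97% in KO and 6.16% in WT, and its intervals do not overlap.

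*Hsd3b7* (ENSMUSG00000042289, chr7:127800604-127803802) belongs to the same family by name but acts on hydroxylated cholesterol in bile acid synthesis, and its coding sequence was only 51.1% to 52.8% identical to those of the chromosome 3 genes. It had 2530 counts in KO and 2827 in WT, the highest KO count of the 10 genes. The TMM-scaled levels were 235 and 174 CPM, a log2 fold change of 0.43 (0.35 to 0.51), and with total counts it was -0.17. Of its 51-base words, 93.9% also occur in the gene model *Gm49388*, which had 0 counts in both libraries.

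*Hsd11b1* (ENSMUSG00000016194, chr1:193221634-193264075) encodes the enzyme that regenerates active glucocorticoid from its inactive ketone in hepatocytes. It had 996 counts in KO and 1271 in WT, and its log2 fold change was 0.24 (0.12 to 0.36) with TMM and -0.36 with total counts. The enzyme takes its NADPH from the product of *H6pd*, hexose-6-phosphate dehydrogenase, which works beside it in the endoplasmic reticulum. *H6pd* had 2519 counts in KO and 57 in WT, a log2 fold change of 6.04 (5.68 to 6.46). Of the summed counts of the pair, *H6pd* took 71.7% (70.1 to 73.1) in KO and 4.29% (3.27 to 5.53) in WT. Of 8 genes of cofactor supply tested, 1 was higher past 2-fold (*H6pd*) and 0 were lower, with a median of -0.22. Of all tested genes 9.46% were higher and 9.94% lower. With total counts 1 of the 8 was higher and 2 were lower, beside 4.6% and 26.6%. *H6pd* shares no 51-base word with another gene.

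The 17β-hydroxysteroid dehydrogenases differed little after TMM scaling, and their ratio was alike in both livers. *Hsd17b2*, whose product oxidises estradiol and testosterone to their weaker ketone forms, had 2504 counts in KO and 3109 in WT (ENSMUSG00000031844, chr8:117701946-117759029). Its log2 fold change was 0.28 (0.20 to 0.36) with TMM and -0.32 with total counts. *Hsd17b6*, which oxidises the reduced androgen androstanediol back towards active androgen and also acts on retinol, had 360 and 508 counts (ENSMUSG00000025396, chr10:127990941-128000678). Its TMM-scaled log2 fold change was 0.10 with an interval that includes 0 (-0.10 to 0.29). *Hsd17b2* made up 87.4% (86.2 to 88.6) of the counts of the pair in KO and 86.0% (84.8 to 87.1) in WT, which is not distinguishable at this depth.

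The *Hsd17b6* value is uncertain for another reason. Of its 51-base words, 13.5% occur in *Rdh1* and 13.5% in the retinol dehydrogenase gene listed as *Gm28046*, which had 330 counts in KO and 0 in WT. When the counts of *Hsd17b6* and of the genes that share over 10% of its words were summed, the log2 fold change was 1.04. That sum left out genes that share less, such as *Rdh9* (6.32%), with 10 counts in KO and 734 in WT. It also left out *Rdh7* (5.23%), with 4449 and 7050 counts. Both are named after their values were seen, and a wider sum was not tried, so the direction of any error is not known. How the counting divided reads among these genes is not given in the sources used here.

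Of the 10 genes, both whose enzymes reduce the double bond of the steroid's first ring, and *Akr1c6*, were lower in KO under either scaling. Outside the 10, *Srd5a2*, whose enzyme acts on the same bond, was higher in KO under either scaling, on few counts (13 in KO and 3 in WT). *Srd5a1* (ENSMUSG00000021594, chr13:69573449-69611442) encodes the hepatic 5α-reductase, which makes dihydrotestosterone from testosterone and starts the clearance of glucocorticoids. It had 294 counts in KO and 1008 in WT, the lowest count of the KO library among the 10 genes. The TMM-scaled levels were 27.3 and 62.2 CPM, a log2 fold change of -1.18 (-1.38 to -0.996), which is 2.27-fold lower, and the upper end of its interval fell just short of 2-fold. Among all tested genes 92.5% had a higher fold change. With total counts it was -1.79 (-1.98 to -1.60).

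*Akr1d1* (ENSMUSG00000038641, chr6:37530173-37568815) encodes the 5β-reductase, which reduces the same double bond with the opposite geometry and also serves bile acid synthesis. It had 761 counts in KO and 1693 in WT, a log2 fold change of -0.56 (-0.69 to -0.44) with TMM and -1.16 (-1.29 to -1.04) with total counts. *Srd5a1* took 27.9% (25.2 to 30.7) of the 1055 counts of these 2 ring reductases in KO and 37.3% (35.5 to 39.2) of 2701 in WT. The 2 intervals do not overlap, so within the pair the difference was larger for the 5α-reductase whatever the scaling.

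*Akr1c6* (ENSMUSG00000021210, chr13:4434306-4457530) encodes an aldo-keto reductase that reduces the ketone at position 17 of androgens and estrogens, the reverse of the step taken by *Hsd17b2*. It had 2076 counts in KO and 4419 in WT, the highest WT count of the 10 genes. The log2 fold change was -0.50 (-0.57 to -0.42) with TMM and -1.10 (-1.18 to -1.02) with total counts. The differences of *Akr1c6* and *Akr1d1* were close in size, and *Akr1c6* took 73.2% (71.5 to 74.8) of the counts of the pair in KO and 72.3% (71.2 to 73.4) in WT, intervals that overlap. These 3 genes were below 0 under every setting tried, from -1.79 to -1.17 for *Srd5a1*, from -1.10 to -0.48 for *Akr1c6* and from -1.16 to -0.55 for *Akr1d1*.

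**Figure D3:**
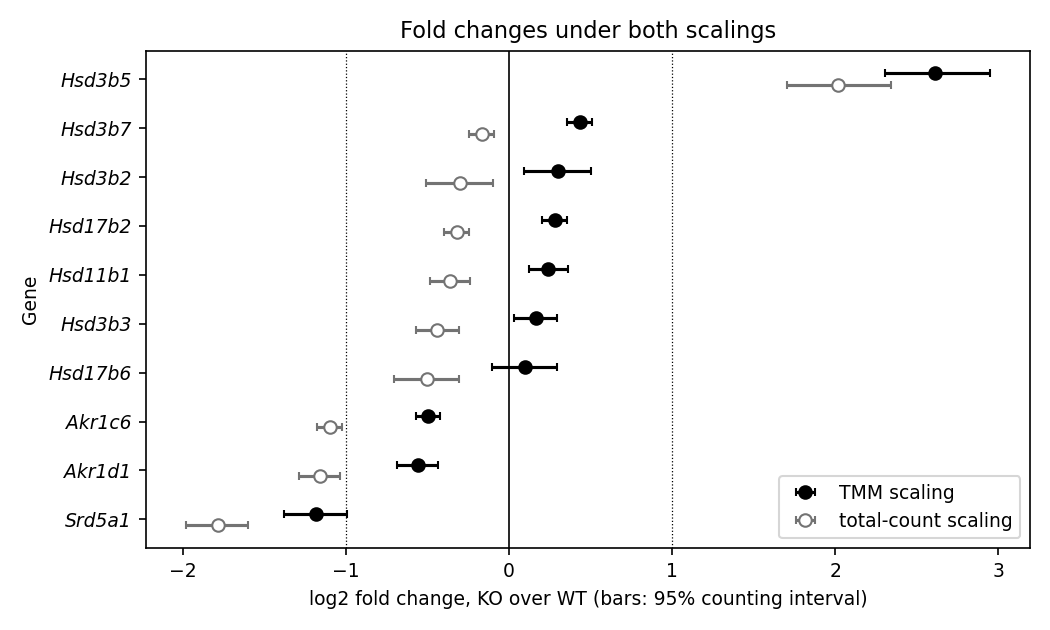
Log2 fold change, KO over WT, of each of the 10 genes with its exact 95% counting interval, after TMM scaling and after scaling by total counts. *Hsd3b5* is above 0 and *Srd5a1*, *Akr1c6* and *Akr1d1* are below 0 under both, and the other genes change side.

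Levels of different genes were compared per length, in the authors' FPKM. *Hsd17b2* was highest in both livers at 148 FPKM in KO and 185 in WT, followed by *Akr1c6* at 76.0 and 163. The lowest gene in KO was *Hsd3b2* at 4.45 FPKM and in WT *Hsd3b5* at 5.05, just under *Hsd3b2* at 5.49. By rank among the 10, *Hsd3b5* was number 4 in KO and 10 in WT, at 20.5 and 5.05 FPKM, while *Srd5a1* was number 9 in KO and 6 in WT, at 6.80 and 23.5. *Hsd3b5* (20.5), *Akr1d1* (19.7) and *Hsd17b6* (19.5) were neighbours in KO that lay within 1 FPKM of each other.

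The order of levels depends on the length used for each gene. The lengths implied by the authors' counts and FPKM were 5.42 times the longest protein-coding transcript for *Hsd3b3*, 3.88 times for *Hsd11b1* and 3.85 times for *Hsd3b7*, so these FPKM are low for the transcript. Per kilobase of the longest protein-coding transcript, an alternative chosen after seeing the data, *Akr1c6* (195 CPM per kb) stood above *Hsd17b2* (145) in WT. On that scale *Hsd11b1* was number 4 in both livers, at 57.1 CPM per kb in KO and 48.3 in WT. *Hsd3b5* was number 7 in KO and 10 in WT, at 25.2 and 4.10 CPM per kb.

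Reads of close relatives could be divided between genes by the counting. *Hsd3b3* shares 26.8% of its 51-base words with *Hsd3b2*, and *Hsd3b2* shares 10.9% with *Hsd3b3*, so their single values are less certain than their sum, whose log2 fold change was 0.20. *Hsd3b5* shares 17.9% with *Hsd3b4* and 17.9% with *Gm10681*, both at 0 counts in both libraries. *Srd5a1* shares 16.5% with *Gm17108*, also at 0 counts. *Srd5a1* overlaps *Nsun2* on the opposite strand, with 361 counts in KO and 504 in WT, and whether the counting used strand is not given in the sources used here. *Hsd11b1*, *Hsd17b2* and *Akr1d1* share no 51-base word with another gene.

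The other genes of steroid metabolism differed in both directions. Of 48 listed genes, 29 were tested, and past 2-fold 6 were higher (20.7%) and 6 were lower (20.7%), beside 9.46% and 9.94% of all tested genes, with a median of -0.16. With total counts 5 were higher and 10 lower, with a median of -0.76, beside 4.6% and 26.6% of all tested genes. These lists were chosen with earlier results of these data known, and their shares are a description. Of 76 genes, the 10 left out, that the authors' annotation places in the KEGG pathway of steroid hormone biosynthesis, 53 were tested. Past 2-fold 6 were higher (11.3%) and 15 lower (28.3%), beside 9.46% and 9.94% of all tested genes, with a median of -0.059. With total counts 4 were higher and 18 lower, with a median of -0.66, beside 4.6% and 26.6%.

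Among the other reductases, 4 of 9 tested genes were lower past 2-fold and 1 was higher, with a median of -0.89, beside 9.94% lower and 9.46% higher among all tested genes. With total counts 6 were lower, with a median of -1.49, beside 26.6% of all tested genes. The lower genes with at least 100 counts in a library were *Akr1c19* (27 counts in KO and 185 in WT, log2 fold change -2.17), *Srd5a3* (42 and 142, -1.16), a reductase of polyprenols, and *Akr1c12* (181 and 549, -1.01). *Akr1c6* took 59.1% (57.5 to 60.7) of 3512 counts of the *Akr1c* genes in KO and 62.6% (61.5 to 63.7) of 7057 counts in WT. *Akr1c14*, a 3α-hydroxysteroid dehydrogenase, took 26.7% (25.2 to 28.1) and 15.9% (15.1 to 16.8), so it held a larger part of the family's counts in KO as *Akr1c6* held a slightly smaller one.

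Of 3 tested steroid P450 genes 2 were higher past 2-fold and 0 lower, beside 9.46% and 9.94% of all tested genes. With total counts 2 were higher and 0 lower, beside 4.6% and 26.6%. *Cyp21a1*, the 21-hydroxylase of corticosteroid synthesis, had 153 counts in KO and 49 in WT, with a log2 fold change of 2.22 (1.76 to 2.73), and shares 23.2% of its words with the pseudogene *Cyp21a2-ps*, which had 865 and 622 counts. *Cyp7b1*, which hydroxylates oxysterols and androgen precursors, had 1196 counts in KO and 559 in WT, and its log2 fold change was 1.69 (1.54 to 1.84). Like *Hsd3b5*, *Cyp7b1* is a male-biased gene of the liver. Of 12 other male-biased genes tested, *Cyp7b1* included, 5 were higher past 2-fold and 0 lower with TMM, with a median of 0.89, beside 9.46% of all tested genes higher. With total counts 2 of the 12 were higher, with a median of 0.29, beside 4.6%. The highest of them was *Cyp7b1* and the lowest *Mup20*, at -0.34. Of 14 female-biased genes only 3 had enough counts to be tested, and 6 had 0 counts in both libraries. Past 2-fold with TMM 0 of the 3 were higher and 1 was lower, beside 9.46% and 9.94% of all tested genes. It was *Acot3*, with 3 counts in KO and 34 in WT, so this call rests on few counts. With total counts 2 of the 3 were lower, beside 26.6%.

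Among the conjugation genes, *Sult2a8*, a hepatic sulfotransferase, had 2877 counts in KO and 992 in WT (log2 fold change 2.13), and *Ugt2b38*, a glucuronosyltransferase, had 117 and 70 (1.33). *Ugt2b38* was at 0.73 with total counts, within 2-fold, and shares 33.8% of its words with *Ugt2b5*, which had 3799 and 4497 counts. *Sult1e1*, the estrogen sulfotransferase, had 2 counts in KO and 67 in WT, with a log2 interval from -7.55 to -2.56. Of 8 other 17β- and 11β-hydroxysteroid dehydrogenases 1 was higher and 0 lower, with a median of -0.20, beside 9.46% and 9.94% of all tested genes. With total counts 1 was higher and 2 were lower, beside 4.6% and 26.6%. *Hsd3b1*, *Hsd3b4* and *Hsd3b6* had 0 counts in both libraries. *Sult1e1* and *Akr1c18*, lower past 2-fold, and *Hsd17b1* and *Srd5a2*, higher past 2-fold, had under 100 counts in each library. All of these are named after their values were seen.

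**Figure D4:**
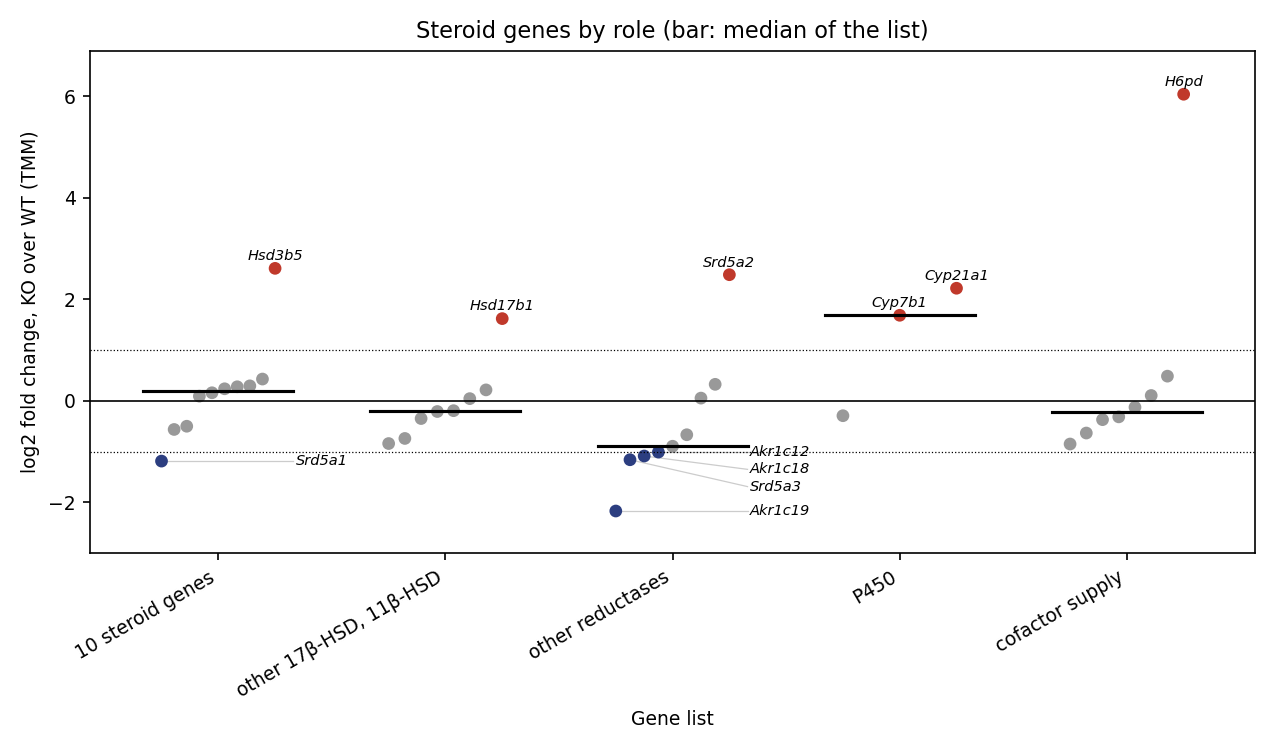
Log2 fold change, KO over WT after TMM scaling, of the 10 genes and of the tested genes of the lists of other dehydrogenases, other reductases, P450 genes and cofactor supply, with 1 point per gene and a bar at the median of the list. Red and blue points lie past 2-fold, and the median of the other reductases, -0.89, is the lowest bar.

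The count of lower genes among those that glucocorticoids induce depended on the scaling. Of 12 glucocorticoid-induced genes tested 0 were higher and 2 lower with TMM, with a median of -0.33, beside 9.94% of all tested genes lower. With total counts 6 were lower, with a median of -0.93, beside 26.6%. The lower ones with TMM were *Sult1e1* and *Fkbp5*, a chaperone partner of the glucocorticoid receptor, with 122 counts in KO and 370 in WT (-1.01). *Per1* was the highest of that list at 0.67.

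The label of the tissue was checked against its markers. Of 10 hepatocyte markers 0 were past 2-fold in either direction with TMM, with a median of 0.01 and summed levels of 63374 CPM in KO and 65339 in WT. With total counts 3 of the 10 were lower and 0 higher, beside 26.6% and 4.6% of all tested genes. The markers of other liver cells were at 119 and 173 CPM for 8 stellate cell genes, 128 and 171 for 7 Kupffer cell genes, 122 and 124 for 7 endothelial genes and 164 and 125 for 6 cholangiocyte genes. Of the stellate, Kupffer and endothelial lists 2 genes each were lower past 2-fold with TMM, beside 9.94% of all tested genes. With total counts 5, 3 and 4 were lower, beside 26.6%. Of 5 cholangiocyte genes tested 2 were higher under either scaling, beside 9.46% with TMM and 4.6% with total counts. They were *Krt19* (26 counts in KO and 7 in WT) and *Krt7* (15 and 6), so these calls rest on few counts. Fewer cells of a type and less RNA per cell cannot be told apart in bulk RNA. Adrenal tissue, which also makes steroids, was checked in the same way. Of its 7 markers, *Cyp21a1* was the only one with enough counts to be tested, at 153 in KO and 49 in WT, and the part of adrenal RNA in that difference was not tested. *Cyp11a1*, *Cyp11b1*, *Mc2r* and *Nr5a1* had 0 counts in both libraries and *Star* had 2 and 6, where a count of 0 allows up to 3 counts. Of the Leydig cell genes, *Hsd17b3* and *Lhcgr* had 0 counts in both libraries and *Insl3* had 0 in KO and 1 in WT. *Cyp17a1*, the only gene of that list with enough counts to be tested, had 52 in KO and 96 in WT. Its log2 fold change was -0.29 with TMM.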

How the data were processed

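Poly(A) RNA of liver was sequenced on Illumina HiSeq instruments, as 1 KO and 1 WT library. The authors deposited 1 table with unnormalised counts per gene and the FPKM they computed from them, scaled by the total count. The submitters' processing notes name HISAT2 2.0.4, StringTie and edgeR, and a human genome build, although the identifiers and loci are those of mouse (GRCm38). Transcript sequences, lengths and overlaps used here were taken from GENCODE M21. Its coordinates differ from those given with the counts for some genes, among them *Hsd17b2*, *Hsd17b6* and *Akr1c6*. The table's remaining columns, gene annotation apart, hold the authors' own comparison and were not used. Depth was 13247497 counts in KO and 13163348 in WT.

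Genes that reached 10 counts in the 2 libraries combined were scaled by TMM in edgeR 4.0.16 (R 4.3.3), with a prior count of 0.5. A gene was counted past a 2-fold difference, with no test. On simulated counts with counting error only, 200 of 200 genes changed by 2 on the log2 scale passed 2-fold, among 13542 genes tested. The changed genes had at least 200 counts, so recovery was nearly certain. The simulation held no variation between animals, so it checks the calculation and not the calls. Intervals came from scipy 1.17.1, tables from pandas 2.3.3 and numpy 2.4.6 in Python 3.11.15, alignments from biopython 1.88 and plots from matplotlib 3.10.9. Alternatives were other scalings (DESeq2 1.42.0 among them), FPKM, filters, prior counts and calls. Shared words, identity and UTRs were taken from the longest protein-coding transcript, where the longest transcript had been planned, because retained introns hold repeats.

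The members and lists were chosen with earlier results of these data known. Genes named are the 10 genes, listed steroid enzymes, cofactor and receptor genes past 2-fold with at least 100 counts in a library, the highest and lowest of the other lists, and genes that share over 10% of their 51-base words with one of the 10. Some genes of the conjugation and receptor lists are not reported here.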

Additional observations from a re-analysis of the deposited data

How the results depend on the processing

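Scaling decided most of what moved. With total counts, 3 of the 10 genes were lower past 2-fold, 624 tested genes were higher and 3605 lower, and 10 other steroid enzyme genes were lower. The medians were then -0.40 for the 10 genes and -0.76 for the other steroid enzymes, and the log2 ratio of the summed counts was -0.58, against 0.02 with TMM. With the authors' FPKM and a pseudocount of 0.1, the corresponding values were 3, 405, 2934 and 10 genes, medians of -0.40 and -0.76 and a ratio of -0.58. With total counts without the mitochondrial genes the ratio was -0.063. A minimum of 1 count gave 2269 genes higher and 2763 lower, out of more genes tested, and a minimum of 50 counts gave 656 and 730, out of fewer. With an edgeR exact test at an assumed coefficient of variation of 0.2, of the 10 genes 0 were lower (*Srd5a1* was lost), 488 tested genes were higher and 444 lower, and 3 other steroid enzymes were higher and 2 lower. At 0.4, of the 10 genes 0 were higher and 0 lower, 59 tested genes were higher and 58 lower, and 0 other steroid enzymes were higher and 1 lower. DESeq2's size factors, the upper quartile, the exact binomial test and a prior count of 5 kept each of these counts within 1.5 times its value with TMM, with 1081 tested genes higher and 1128 lower by the binomial test and 1016 and 1047 with the prior count of 5, which left 5 other steroid enzymes higher and 4 lower. Among the 10 genes, *Akr1c6* and *Akr1d1* stayed below 0 under every setting, and the others within 2-fold with TMM changed side. *Hsd3b5* and *Srd5a1*, past 2-fold with TMM, kept their direction, and reversal was not examined outside the 10 genes. With total counts the median of all tested genes was -0.60, less than a 2-fold step, so scaling could hardly reverse such genes. Smaller differences did change side, as 7 of the 10 genes were above 0 with TMM and 1 with total counts. No paired analysis was possible because KO and WT have 1 library each, and for the same reason no replicate could be left out. With 103 counts in WT, the level of *Hsd3b5* there is the least precise of the 10.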
